A study of Mus musculus with 4 samples.

Results

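The genes described here are 10 plasma membrane amino acid transporter genes, Slc7a1, Slc7a3, Slc7a5, Slc7a6, Slc3a2, Slc1a4, Slc1a5, Slc38a1, Slc38a2 and Slc6a9, chosen by symbol and matched to the Ensembl identifiers of the files. All 10 were found among 47069 genes. Total RNA of HT22 cells, a line of immortalised neuronal cells from mouse hippocampus (strain label C57BL/6), was sequenced in 4 libraries that each stand alone in their group. Per the labels, the KD OGD library came from cells infected with an adenovirus meant to knock down the long noncoding RNA AK046375 and then held for 6 h without glucose, with nitrogen in place of oxygen (oxygen-glucose deprivation, OGD). The control OGD library came from cells given the control adenovirus and the same deprivation. The KD normal and control normal libraries came from cells given the same 2 viruses and kept in normal medium. All 4 groups had therefore been infected, 2 h after seeding, and all are the same cell line. The title of the series speaks of overexpression and its design text of a lentivirus, whereas the library labels speak of knockdown and an adenovirus. AK046375 itself was not analysed here, so "KD" means only the library labelled knockdown.

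Amino acid transporters carry amino acids across the plasma membrane by exchange, by sodium-coupled uptake or by facilitated diffusion, and so set the supply for protein synthesis and for signalling through the kinase mTORC1. Several of them are known targets of ATF4, the transcription factor that is translated when the integrated stress response is active. In brain they also handle the precursors of transmitters such as glutamate and nitric oxide, and glycine, a co-agonist of NMDA receptors.

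Libraries held between 23327743 and 27539845 expected counts, and between 11429 and 12330 genes reached 1 FPKM (the count scaled to the effective transcript length and to the library total). With 1 library per group there was no spread between replicates, so no difference between conditions was tested. Brackets give 95% counting intervals, which compare 2 libraries and cover counting error only, since PCR copies without molecular identifiers are not independent molecules. Of 10 neuronal markers, Rbfox3, Snap25, Nefl and Dcx were at 0 FPKM in all 4 libraries. The summed level of the neuronal list was 22.0 FPKM in KD OGD and 21.2 FPKM in control OGD, against 63.3 FPKM in KD normal and 90.5 FPKM in control normal, and most of it came from Tubb3 and Eno2. Of 6 fibroblast markers, 5 were at 1 FPKM or more in every library and Lum was at 0, with a summed level of 736 FPKM in KD OGD and 390 FPKM in control OGD, against 569 FPKM in KD normal and 532 FPKM in control normal. Astrocyte markers summed to between 1.58 and 3.79 FPKM, oligodendrocyte markers to between 0.23 and 1.34 FPKM and endothelial markers to between 0.12 and 0.81 FPKM. Of 6 microglial markers Ptprc and P2ry12 were at 0 in all libraries, whereas Tmem119 stood between 20.1 and 55.1 FPKM and made up most of a sum between 22.7 and 56.7 FPKM. The part of these marker levels in the results was not tested, and in bulk RNA fewer cells of a type cannot be told apart from less RNA per cell.

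The transporters spanned a wide range of levels. Slc3a2, the heavy chain (4F2hc, CD98) that brings its partner light chains to the cell surface, was first of the 10 in every library, at 877 FPKM in KD OGD and 843 FPKM in control OGD, against 392 FPKM in KD normal and 320 FPKM in control normal. It exceeded 95.5% of the compared genes in KD normal and 98.6% in KD OGD. Slc7a3, which encodes the neuronal cationic amino acid transporter, was last in every library, at 2.84 FPKM in KD OGD and 2.64 FPKM in control OGD, against 0.28 FPKM in KD normal and 0.02 FPKM in control normal. The places between them moved with culture. Slc38a2, a sodium-coupled neutral amino acid transporter, ranked 2 in both OGD libraries, against 4 in KD normal and 3 in control normal. Slc7a1, the widely expressed carrier of arginine and lysine, ranked 4 in KD OGD and 6 in control OGD, against 9 in KD normal and 8 in control normal. Slc7a6, the light chain that exchanges cationic for neutral amino acids, went the other way, with rank 9 in both OGD libraries, against 6 in KD normal and 5 in control normal. Together the 10 genes took 0.46% of all counts in KD OGD and 0.286% in control OGD, against 0.106% in KD normal and 0.108% in control normal.

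**Figure D1:**
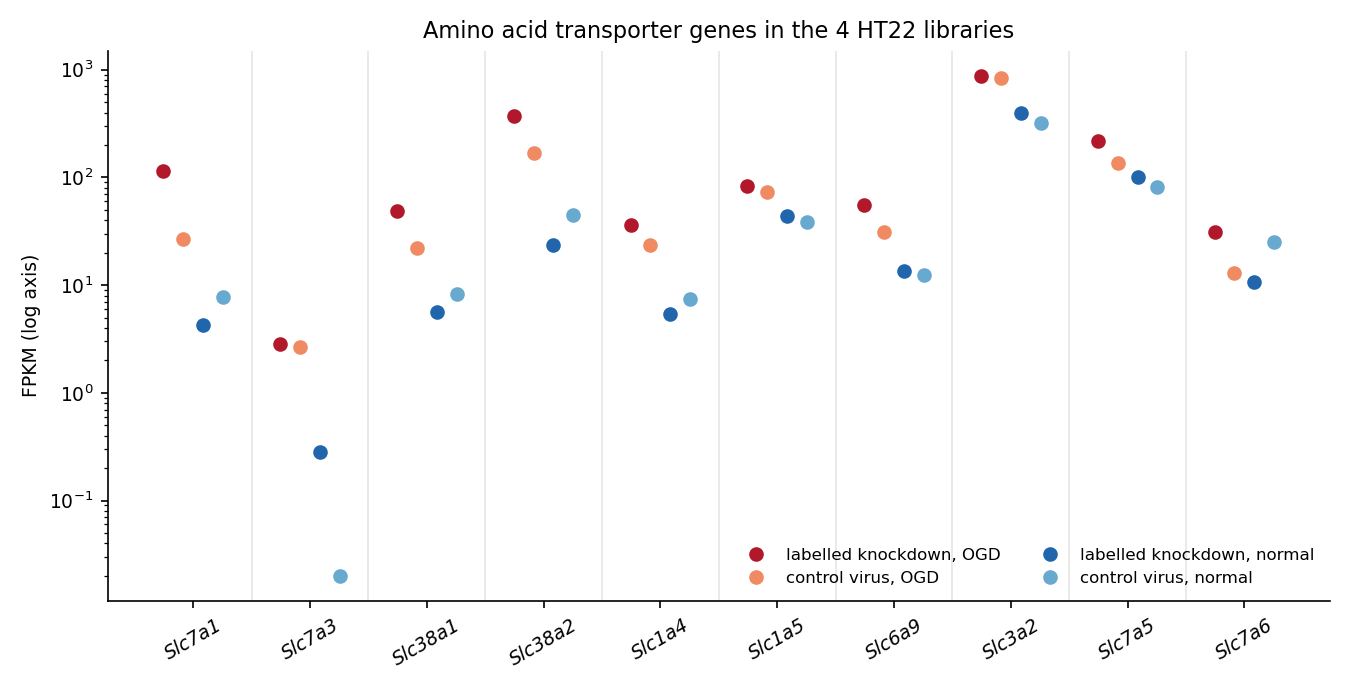
Levels of the 10 transporter genes in FPKM on a log axis, with 1 point per library and no error bars because each group is 1 library. For 9 of the genes both OGD points lie above both normal points, and for Slc7a6 the control normal point (24.9 FPKM) lies between the 2 OGD points (31.4 FPKM in KD OGD and 13.1 FPKM in control OGD).

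The stretches just upstream of 4 of these genes are printed because the genes differ in how they stood in OGD: Slc7a1, Slc38a2 and Slc1a4 were higher in both OGD libraries than in both normal libraries, and Slc7a6 was not. Each is the 250 bases before an annotated start from RefSeq (GRCm38.p6), 5′ to 3′ in the sense of the gene, and capitals mark the core letters of the hypoxia response element, ACGTG or GCGTG, on either strand.
Slc7a1 promoter, chr5:148399905-148400154, minus strand: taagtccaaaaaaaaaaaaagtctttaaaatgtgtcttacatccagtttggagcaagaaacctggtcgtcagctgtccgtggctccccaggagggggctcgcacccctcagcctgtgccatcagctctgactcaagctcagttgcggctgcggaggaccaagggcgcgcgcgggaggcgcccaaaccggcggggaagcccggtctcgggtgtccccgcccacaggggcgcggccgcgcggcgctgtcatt
Slc38a2 promoter, chr15:96699729-96699978, minus strand: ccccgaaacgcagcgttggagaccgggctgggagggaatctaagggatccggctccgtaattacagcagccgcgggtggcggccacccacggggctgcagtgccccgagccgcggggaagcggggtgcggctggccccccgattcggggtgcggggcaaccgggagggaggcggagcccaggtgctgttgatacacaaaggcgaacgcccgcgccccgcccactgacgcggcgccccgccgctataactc
Slc1a4 promoter, chr11:20332714-20332963, minus strand: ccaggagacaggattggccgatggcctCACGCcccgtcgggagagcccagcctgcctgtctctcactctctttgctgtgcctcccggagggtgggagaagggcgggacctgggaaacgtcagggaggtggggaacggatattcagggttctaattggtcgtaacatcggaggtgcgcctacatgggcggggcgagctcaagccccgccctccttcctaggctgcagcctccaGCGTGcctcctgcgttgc
Slc7a6 promoter, chr8:106168604-106168853, plus strand: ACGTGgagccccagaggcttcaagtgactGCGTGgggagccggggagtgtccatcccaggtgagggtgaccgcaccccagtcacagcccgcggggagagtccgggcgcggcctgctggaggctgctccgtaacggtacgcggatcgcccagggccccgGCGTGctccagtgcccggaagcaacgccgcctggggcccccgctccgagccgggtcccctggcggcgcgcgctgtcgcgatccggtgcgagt
Of the 10 members, 6 had such a stretch in the table used, with 10 starts in all. The letters TGATGNAA, a form of the C/EBP-ATF response element bound by ATF4, were found on neither strand in any of these 10, and in 3.45% of all 32851 stretches of the same length. The E-box CACGTG (6.02% of all stretches), which contains ACGTG, and the cyclic AMP response element TGACGTCA (1.55%) were also in 0 of the 10. ACGTG was found upstream of Slc3a2 and Slc7a6, and occurred in 16.6% of all stretches. GCGTG was found upstream of Slc1a4, Slc6a9 and Slc7a6, and occurred in 28.2% of all stretches, so these short letters are common. The stretches of Slc7a1 and Slc38a2, with the highest OGD ratios among the genes printed, held none of the 5 sets of letters. In human SLC38A2 the known C/EBP-ATF element lies in the first intron, outside a window of this kind.

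OGD was set against normal culture under each virus, which asked what deprivation does to transporter expression. Under the KD virus 9 of the 10 genes were at least 2-fold higher in OGD on the scale of log2(FPKM + 1) and 0 were lower, where 33.4% of the 12256 genes compared were higher and 20.9% lower. Under the control virus 7 were higher and 0 lower, where 11.6% of genes were higher and 24.3% lower. The median log2 ratio of the 10 was 1.77 under the KD virus, against 0.32 over all genes, and 1.35 under the control virus, against -0.25 over all genes. Both OGD libraries exceeded both normal libraries for 9 of the 10, and for 28.9% of all genes compared. Slc7a3 passed the filter on low values (a mean of 1 FPKM over the 4 libraries) only through its OGD libraries, so a difference of that gene was built into its passing.

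Of the cationic amino acid carriers, Slc7a1 had the widest range of the 10 genes on the log2 scale and Slc7a3 had few counts in normal culture. Slc7a1 (CAT-1), which takes up arginine, lysine and ornithine, lies on chromosome 5, 148327410 to 148399904, minus strand, in GRCm38. It was at 114 FPKM in KD OGD and 26.7 FPKM in control OGD, against 4.26 FPKM in KD normal and 7.73 FPKM in control normal, the highest in KD OGD and the lowest in KD normal. That made it 26.8-fold higher in OGD under the KD virus [24.6 to 29.1] and 3.46-fold higher under the control virus [3.23 to 3.70]. As a share of counts with no length, these folds were 22.8 under the KD virus and 4.38 under the control virus, because the effective length the files give for Slc7a1 was 4884 nt in KD OGD and 6548 nt in control OGD, against 5727 nt in KD normal and 5170 nt in control normal. Slc7a3 had 101 counts in KD OGD and 128 in control OGD, against 9 in KD normal and 1 in control normal. Its FPKM ratio under the KD virus was 10.3 [5.19 to 23.1], and under the control virus it was 173 [30.5 to 6887], an interval this wide because the denominator is 1 count. Slc7a1 exceeded Slc7a3 in every library, by 40.1 times in KD OGD and 10.1 times in control OGD, against 15.2 times in KD normal, while in control normal 1 count of Slc7a3 gives no usable ratio.

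The sodium-coupled neutral amino acid transporters of system A showed large differences as well. Slc38a2 (SNAT2), which takes up alanine, serine and glutamine and is known to be induced when amino acids run short, lies on chromosome 15, 96687392 to 96699730, minus strand. It was at 374 FPKM in KD OGD and 167 FPKM in control OGD, against 23.5 FPKM in KD normal and 45.2 FPKM in control normal. The OGD level was thus 16.0-fold higher under the KD virus [15.3 to 16.6] and 3.70-fold higher under the control virus [3.59 to 3.82]. Slc38a1 (SNAT1), a glutamine carrier of neurons on the same chromosome, was at 49.1 FPKM in KD OGD and 22.0 FPKM in control OGD, against 5.66 FPKM in KD normal and 8.32 FPKM in control normal. Its order of libraries matched that of Slc38a2, with folds of 8.68 [8.12 to 9.30] under the KD virus and 2.64 [2.50 to 2.80] under the control virus. Slc38a2 exceeded Slc38a1 by 7.62 times in KD OGD and 7.60 times in control OGD, against 4.15 times in KD normal and 5.44 times in control normal.

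The exchangers of alanine, serine and cysteine differed between the pair. Slc1a4 (ASCT1), which moves serine between glia and neurons, was at 36.3 FPKM in KD OGD and 23.6 FPKM in control OGD, against 5.37 FPKM in KD normal and 7.44 FPKM in control normal, with folds of 6.76 [6.13 to 7.47] under the KD virus and 3.17 [2.92 to 3.45] under the control virus. Slc1a5 (ASCT2), the glutamine exchanger of dividing cells, was at 84.0 FPKM in KD OGD and 72.6 FPKM in control OGD, against 43.5 FPKM in KD normal and 38.9 FPKM in control normal. Its FPKM folds were 1.93 [1.82 to 2.05] under the KD virus and 1.86 [1.75 to 1.98] under the control virus, in FPKM the nearest to each other of the 10 genes. As a share of counts they were 1.88 under the KD virus and 2.08 under the control virus. Over the settings tried the log2 ratio of Slc1a5 lay between 0.54 and 1.44 under the KD virus. Under the control virus it lay between 0.77 and 1.27, so some settings put this gene past 2-fold. Slc1a5 exceeded Slc1a4 by 2.31 times in KD OGD and 3.08 times in control OGD, against 8.11 times in KD normal and 5.23 times in control normal, so the pair lay closer together in OGD. Slc6a9 (GlyT1), which clears glycine at synapses, was at 55.3 FPKM in KD OGD and 31.0 FPKM in control OGD, against 13.6 FPKM in KD normal and 12.5 FPKM in control normal. It was 4.07-fold higher [3.74 to 4.43] under the KD virus and 2.49-fold higher [2.27 to 2.73] under the control virus, and as a share of counts 3.31-fold higher under the KD virus and 3.24-fold higher under the control virus.

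The heavy chain and its leading light chain were higher in OGD with smaller folds. Slc3a2 lies on chromosome 19, 8706882 to 8723369, minus strand, and was 2.24-fold higher [2.19 to 2.29] under the KD virus and 2.64-fold higher [2.58 to 2.70] under the control virus. Slc7a5 (LAT1), the light chain that carries leucine and other large neutral amino acids, was at 219 FPKM in KD OGD and 135 FPKM in control OGD, against 101 FPKM in KD normal and 81.4 FPKM in control normal. Its folds were 2.17 [2.11 to 2.24] under the KD virus and 1.66 [1.61 to 1.72] under the control virus. Slc7a6 (y+LAT2), on chromosome 8, 106168857 to 106198706, plus strand, was the exception of the 10. It was at 31.4 FPKM in KD OGD and 13.1 FPKM in control OGD, against 10.8 FPKM in KD normal and 24.9 FPKM in control normal. The OGD level was 2.92-fold higher [2.70 to 3.15] under the KD virus but 1.90-fold lower [1.78 to 2.04] under the control virus. With the trend of the ratios on transcript length removed, the log2 ratio of Slc7a6 was 0.40 under the KD virus, against 1.46 as reported. Under the control virus it was -0.61, against -0.88.

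**Figure D2:**
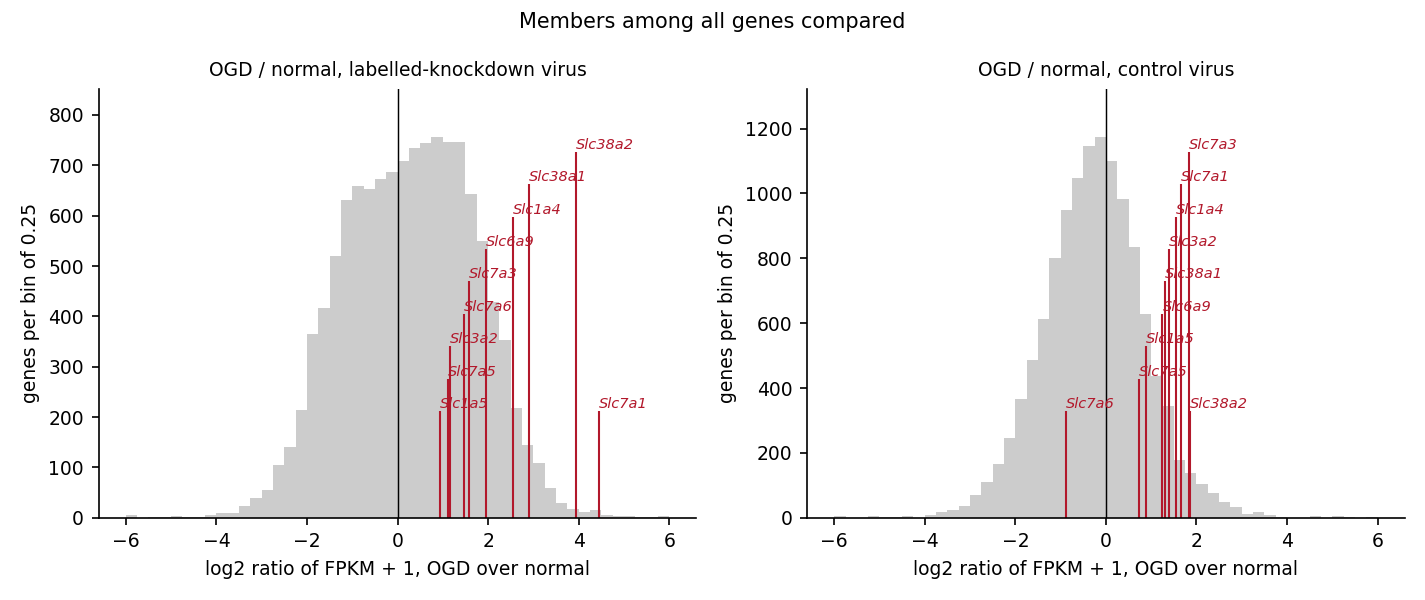
Distribution of the log2 ratio of FPKM + 1, OGD over normal, over 12256 genes (grey bars, genes per bin of 0.25), with a red line at each transporter gene, under the KD virus (left) and the control virus (right). Line heights carry no value. Slc7a1 at 4.45 and Slc38a2 at 3.94 lie far to the right under the KD virus, and Slc7a6 at -0.88 is the only line left of 0 under the control virus.

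The OGD directions of 9 genes, Slc7a6 included, were the same under the 8 other ways of scaling, filtering and handling length that were tried, and that of Slc7a3 under the 7 that kept it, since the filter at a mean of 5 FPKM removed it. That filter and the setting with no filter leave each ratio as it was, so neither could turn a direction. Wherever they were kept, Slc7a1, Slc7a3, Slc1a4, Slc38a1, Slc38a2 and Slc6a9 stayed at least 2-fold higher under both viruses, and Slc3a2 did so under the control virus. The size of single values moved: with the trend of the ratios on transcript length removed, Slc7a1 stood at 3.12, Slc38a2 at 2.74 and Slc38a1 at 1.48 on the log2 scale under the KD virus, against 4.45, 3.94 and 2.91 as reported. The length of the transcripts sampled differed between libraries, with a count-weighted mean of 2153 nt in KD OGD and 1815 nt in control OGD, against 1545 nt in KD normal and 1835 nt in control normal.

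In normal culture the KD library was set against the control library to ask which transporters differ with the AK046375 virus in unstressed cells. Of the 10 genes 1 was at least 2-fold lower, where 13.9% of all genes were, and 0 were higher, where 4.67% were. The member median was -0.14, against -0.27 over all genes, and 5 genes lay on each side of 0, where 34.7% of all genes lay above 0. Slc7a6 had 10.8 FPKM in KD normal against 24.9 FPKM in control normal, 2.32-fold lower [2.14 to 2.51]. Slc38a2 was 1.93-fold lower [1.84 to 2.02], Slc7a1 1.82-fold lower [1.64 to 2.01] and Slc38a1 1.47-fold lower [1.36 to 1.60], and all 4 of these genes were lower under every setting tried. With the length trend removed, however, Slc38a1 stood at only -0.02 on the log2 scale. Slc7a1 was then at -0.21, Slc38a2 at -0.36 and Slc7a6 at -0.57. Slc1a4 was 1.39-fold lower [1.23 to 1.56], but stood at 0.16 on the log2 scale once the length trend was removed. Slc7a5 was 1.24-fold higher [1.19 to 1.28], Slc3a2 1.22-fold higher [1.19 to 1.26] and Slc1a5 1.12-fold higher [1.04 to 1.20], and each of the 3 turned to the other side of 0 after rescaling to equal library sums (-0.02, -0.03 and -0.16). The ratio of Slc6a9 was 1.09 [0.977 to 1.22], an interval that spanned 1. As a share of counts it was 1.31, with an effective length of 2227 nt in KD normal and 1860 nt in control normal. Over the settings tried its log2 ratio lay between -0.18 and 0.63. Slc7a3 had 9 counts in KD normal against 1 in control normal, a ratio of 18.1 [2.51 to 795], and was the only member among the 1342 genes of the authors' deposited table for normal culture, with a log2 fold change of 3.42.

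Under OGD the same comparison asked which transporters differ with the virus in deprived cells. All 10 ratios were above 1, where 63.7% of all genes were. Of the 10 genes 4 were at least 2-fold higher, where 16.2% of all genes were, and 0 were lower, where 2.28% were. The member median was 0.75, against 0.26 over all genes. Slc7a1, at 114 FPKM in KD OGD against 26.7 FPKM in control OGD, was 4.26-fold higher [4.12 to 4.41], or 3.18-fold as a share of counts. It was the only member to stay past 2-fold under every setting tried, down to 1.20 on the log2 scale with the length trend removed. In the authors' deposited table, based on counts, its log2 fold change was 1.40, and it was the only member of the 10 among the 219 genes that table lists. Slc7a6 was 2.40-fold higher [2.24 to 2.57], Slc38a2 2.24-fold higher [2.20 to 2.28] and Slc38a1 2.23-fold higher [2.15 to 2.32]. These 3 remained above 0 under every setting but were within 2-fold with median-of-ratios and upper-quartile scaling, with TMM-scaled CPM that is not divided by length, and with the length trend removed.

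The rest of the genes were nearer to 1. Slc6a9 was 1.78-fold higher [1.68 to 1.89], or 1.33-fold as a share of counts. Slc7a5 was 1.62-fold higher [1.58 to 1.66], or 1.47-fold as a share of counts. Both were above 0 under every setting, down to 0.15 for Slc6a9 and 0.13 for Slc7a5 on the log2 scale. Slc1a4 was 1.54-fold higher [1.46 to 1.62], and at -0.11 on the log2 scale with the length trend removed. Slc1a5, at 84.0 FPKM in KD OGD against 72.6 FPKM in control OGD, and Slc3a2, at 877 FPKM in KD OGD against 843 FPKM in control OGD, had ratios of 1.16 [1.10 to 1.22] and 1.04 [1.02 to 1.06]. On the log2 scale both were below 0 under median-of-ratios scaling (-0.14 and -0.29), upper-quartile scaling (-0.02 and -0.18) and TMM-scaled CPM without length (-0.17 and -0.38). Slc7a3 had a ratio of 1.07 [0.820 to 1.41], not detectable at this depth. Across the 12256 genes, which are no independent replicates, longer transcripts had higher KD over control ratios in OGD (Spearman's rho 0.567 with log2 length) and lower ones in normal culture (rho -0.434). The part of length in these ratios was examined only through the setting that removes its trend.

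**Figure D3:**
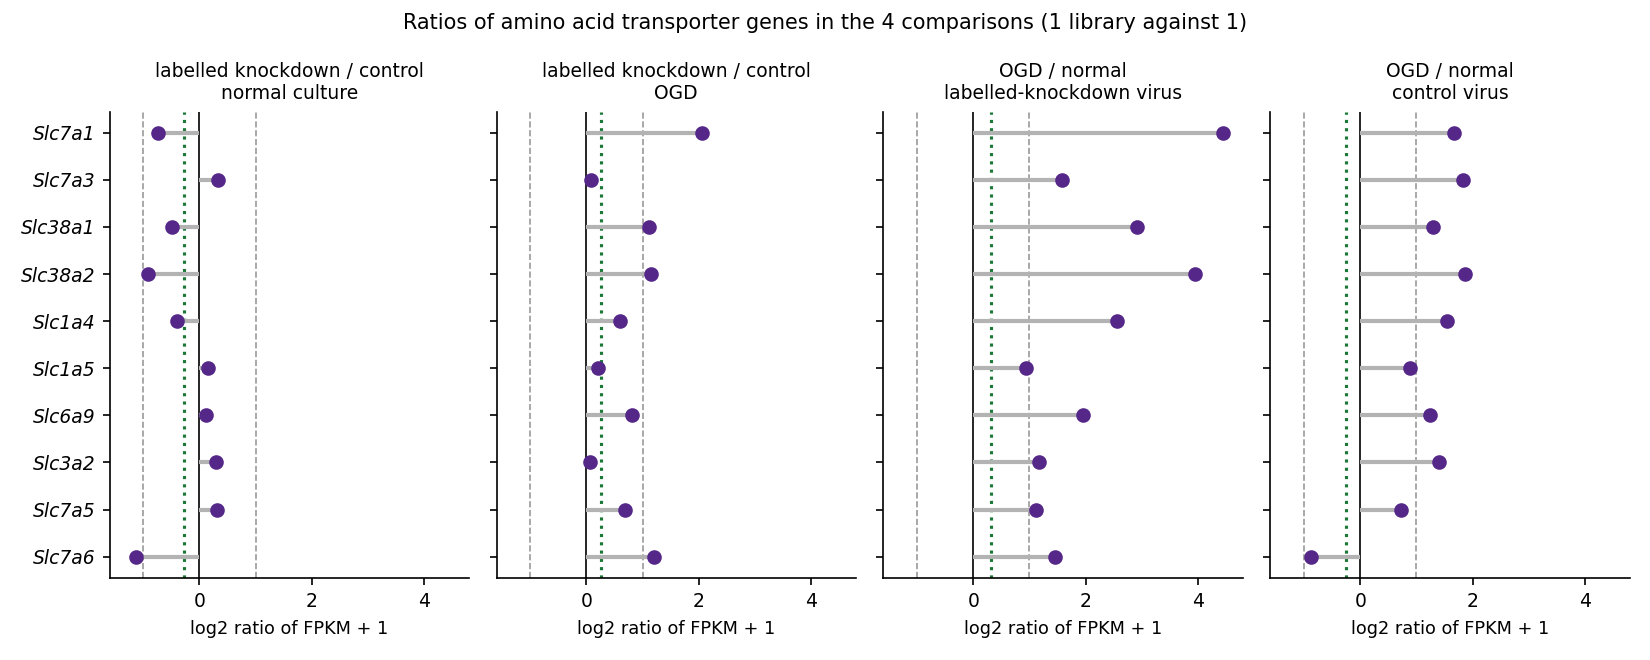
Log2 ratio of FPKM + 1 of each transporter in the 4 comparisons, each 1 library against 1, with dashed lines at 2-fold and a dotted green line at the median of all genes. KD over control is spread on both sides of 0 in normal culture and reaches 2.05 (Slc7a1) in OGD. The directions of Slc7a3, Slc3a2, Slc1a5 and Slc1a4 in OGD, and of Slc7a5, Slc3a2, Slc1a5, Slc6a9 and Slc1a4 in normal culture, turned under at least 1 other scaling or length setting. OGD over normal is above 0 for 10 genes under the KD virus and 9 under the control virus, where 57.1% and 40.3% of all genes are.

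The difference between the 2 KD ratios, OGD minus normal, was at least 1 on the log2 scale for 5 of the 10 genes, where 37.4% of all genes were, and at most -1 for 0, where 12.7% were. The median difference was 0.85, against 0.61 over all genes. Slc7a1 led at 2.78, Slc7a6 stood at 2.34, Slc38a2 at 2.07, Slc38a1 at 1.61 and Slc1a4 at 1.01. Those 5 genes were lower in KD than in control in normal culture and higher in KD than in control under OGD. The same pattern, at any size, was found in 51.4% of all genes compared, so 5 of 10 is close to the background. Slc3a2 had a difference of -0.23 and Slc1a5 of 0.05, and the interval of the difference of Slc1a5 without a pseudocount was -0.07 to 0.17. Only Slc7a1, Slc7a6, Slc38a1 and Slc38a2 kept a positive difference under every setting tried. With the length trend removed these differences were smaller, at 1.42 for Slc7a1, 1.08 for Slc7a6, 0.73 for Slc38a2 and 0.25 for Slc38a1.

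**Figure D4:**
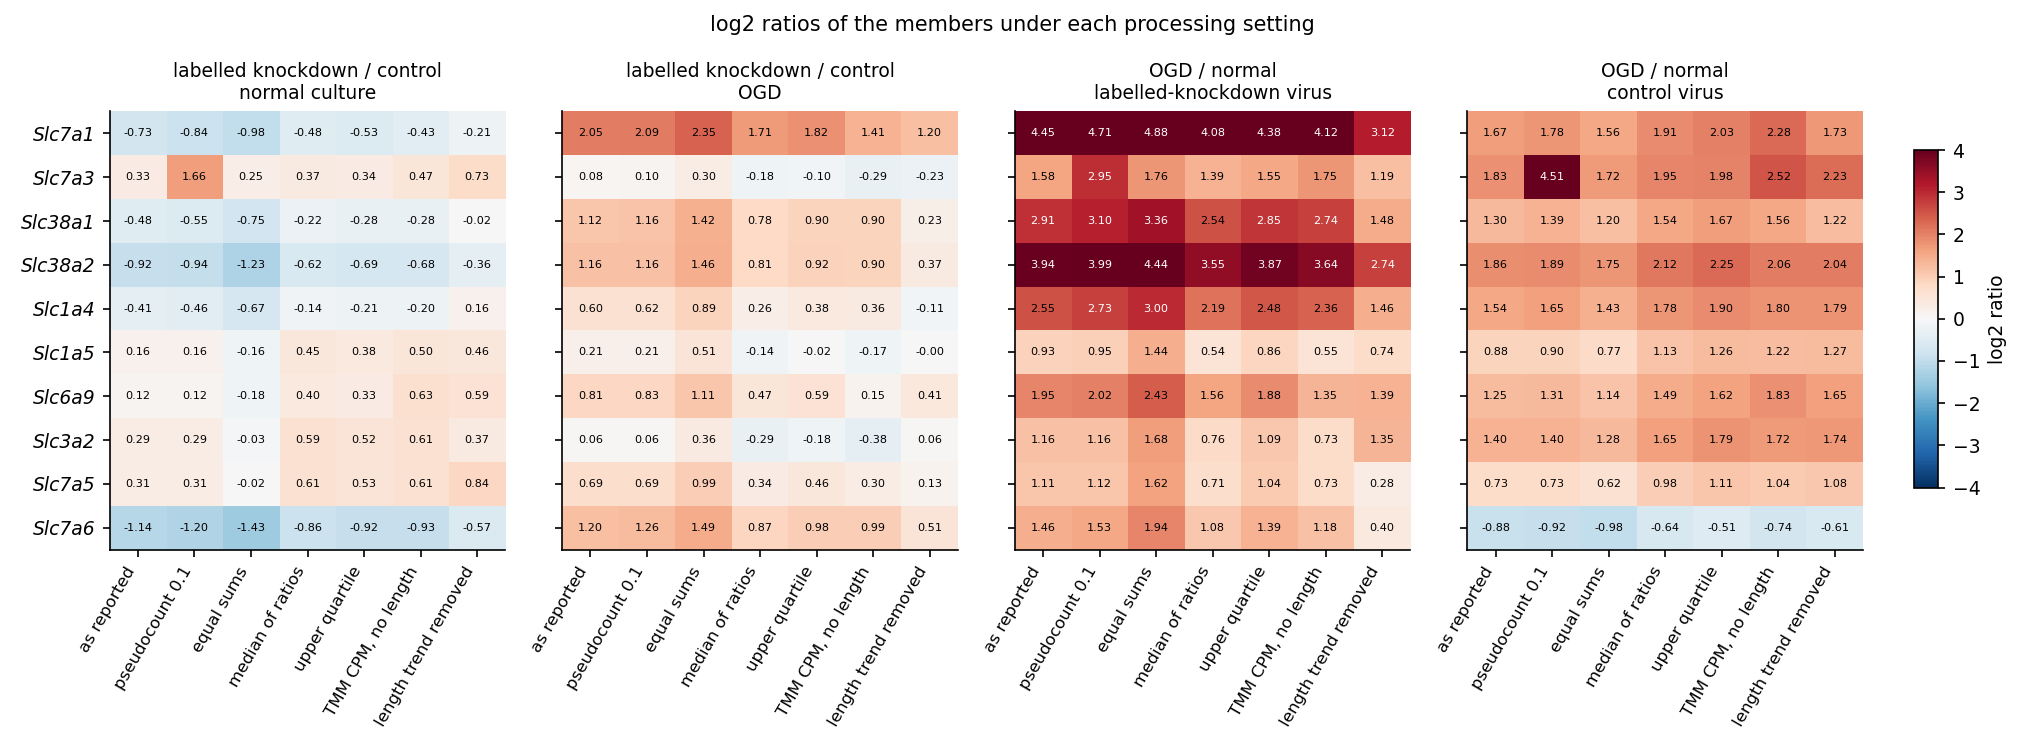
Log2 ratios of the 10 genes in the 4 comparisons as reported and under 6 other settings, coloured from -4 to 4. OGD over normal stays red for every gene under the KD virus and for every gene but Slc7a6 under the control virus, whereas KD over control in either culture holds cells near 0 and of both signs.

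The heavy chain and its light chains did not keep 1 ratio over the libraries. Slc3a2 exceeded Slc7a5 by 4.01 times in KD OGD and 6.23 times in control OGD, against 3.89 times in KD normal and 3.93 times in control normal. In FPKM control OGD thus stood apart from the other 3, but not from KD OGD once the length trend was removed. KD over control in OGD was then 0.06 for Slc3a2 and 0.13 for Slc7a5 on the log2 scale. OGD over normal was then 1.74 for Slc3a2 and 1.08 for Slc7a5 under the control virus. Under the KD virus it was 1.35 for Slc3a2 and 0.28 for Slc7a5. Over the 6 light chains that pair with Slc3a2, the summed level was 263 FPKM in KD OGD and 155 FPKM in control OGD, against 116 FPKM in KD normal and 112 FPKM in control normal. Slc7a5 made up 83.1% of that sum in KD OGD and 87.4% in control OGD, against 87.1% in KD normal and 72.5% in control normal. Slc7a6 was the second light chain in every library. Slc7a11 (xCT), the cystine and glutamate exchanger, was the next at 12.7 FPKM in KD OGD and 6.23 FPKM in control OGD, against 3.68 FPKM in KD normal and 5.49 FPKM in control normal. Slc7a7, Slc7a8 and Slc7a10 were at or below 0.35 FPKM in every library.

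**Figure D5:**
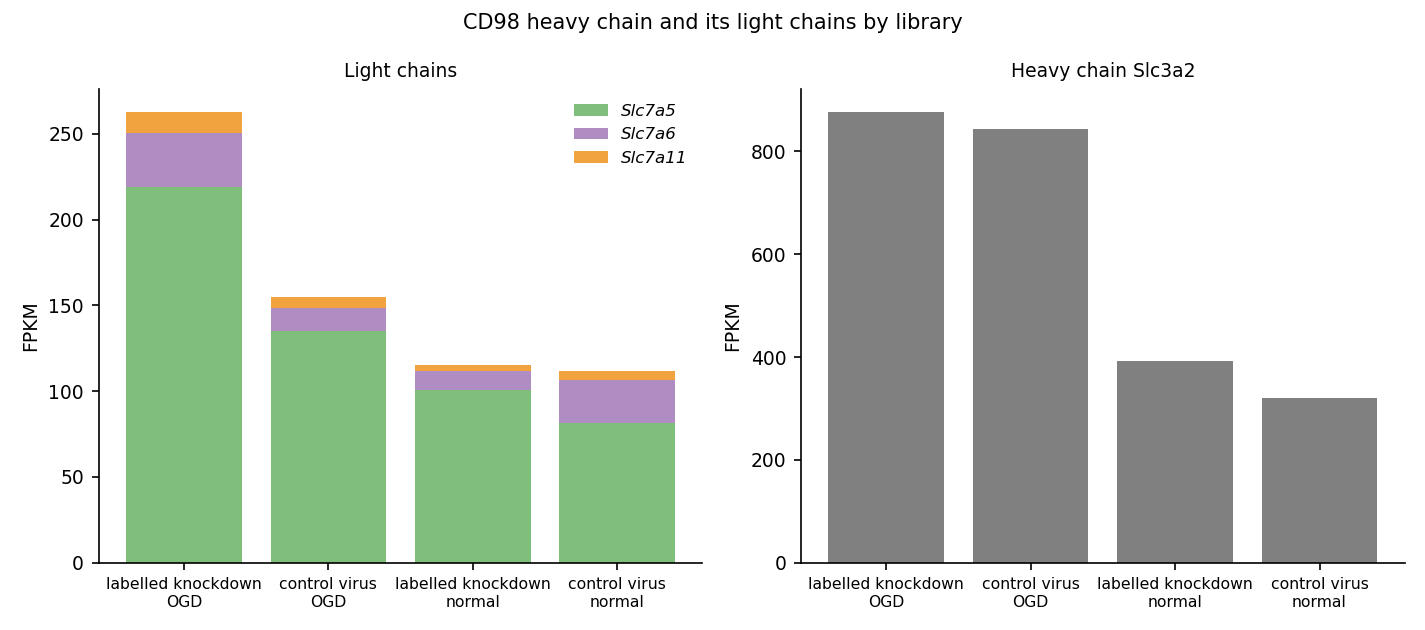
FPKM of the light chains Slc7a5, Slc7a6 and Slc7a11, stacked (left), and of the heavy chain Slc3a2 (right), by library. The light-chain sum is highest in KD OGD, while Slc3a2 stands at 877 FPKM in KD OGD and 843 FPKM in control OGD, a ratio whose direction turned under other scalings.

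Other amino acid transporters were read from a list of 47 genes, of which 13 passed the filter. Under the control virus 4 of the 13 were at least 2-fold higher in OGD and 3 lower, with a median of -0.24 that lay beside the all-gene median of -0.25 and below the 1.35 of the 10 genes. Over all genes 11.6% were higher and 24.3% lower under that virus. Under the KD virus 8 were higher and 0 lower, with a median of 1.55, where 33.4% of all genes were higher and 20.9% lower, with a median of 0.32. Slc36a1, the proton-coupled amino acid transporter of lysosomes and plasma membrane, was at 68.3 FPKM in KD OGD and 29.1 FPKM in control OGD, against 3.64 FPKM in KD normal and 7.97 FPKM in control normal, the same order of libraries as Slc7a1. Slc38a7, a glutamine carrier, was at 38.5 FPKM in KD OGD and 37.8 FPKM in control OGD, against 7.45 FPKM in KD normal and 10.1 FPKM in control normal. In OGD under the control virus Slc38a10 was 5.71-fold lower [5.46 to 5.97], and Slc43a2, a system L carrier of leucine, was 6.21-fold lower [5.11 to 7.57]. As a share of counts Slc38a10 was 4.47-fold lower and Slc43a2 2.96-fold lower. The effective length of Slc43a2 was 4982 nt in control OGD and 2379 nt in control normal. Slc7a11 was 3.46-fold higher [3.17 to 3.78] in OGD under the KD virus and 1.13-fold higher [1.05 to 1.23] under the control virus. As a share of counts Slc7a11 was 2.43-fold higher under the KD virus and 1.23-fold higher under the control virus.

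KD over control in the same list gave 0 of 13 genes higher and 3 lower in normal culture, where 4.67% of all genes were higher and 13.9% lower, and 4 higher and 0 lower in OGD, where 16.2% were higher and 2.28% lower. On the scale of log2(FPKM + 1) the taurine transporter gene Slc6a6 had the largest ratio in size in both, and its FPKM was 3.01-fold lower [2.82 to 3.20] in normal culture and 3.56-fold higher [3.34 to 3.79] in OGD. As a share of counts Slc6a6 was 2.27-fold lower in normal culture and 2.54-fold higher in OGD. Without the pseudocount Slc36a4, at 3.04 FPKM in KD OGD against 0.41 FPKM in control OGD, had a larger fold of 7.42 [5.52 to 10.1]. With 0.68 FPKM in KD normal and 1.60 FPKM in control normal, Slc36a4 passed the filter only through KD OGD. A difference of that gene was thus built into its passing. Slc38a6 was 2.95-fold lower in normal culture, where the authors' deposited table gives it a log2 fold change of -1.42.

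Genes that answer to amino acid shortage through ATF4 were higher in OGD as a list of 15, all of which passed the filter. Under the KD virus 12 were at least 2-fold higher and 0 lower with a median of 1.57, where 33.4% of all genes were higher and 20.9% lower. Under the control virus 13 were higher and 0 lower with a median of 1.68, where 11.6% of all genes were higher and 24.3% lower. Eif4ebp1, which encodes an inhibitor of translation initiation and is named after its values were seen, went the other way under the KD virus, at 653 FPKM in KD OGD and 1059 FPKM in control OGD, against 1203 FPKM in KD normal and 662 FPKM in control normal. Atf4 itself was at 747 FPKM in KD OGD and 744 FPKM in control OGD, against 311 FPKM in KD normal and 263 FPKM in control normal. Asns, which encodes asparagine synthetase, was 3.00-fold higher [2.87 to 3.13] in OGD under the KD virus and 1.76-fold higher [1.68 to 1.83] under the control virus. Trib3, a pseudokinase that feeds back on ATF4, was 1.30-fold higher in OGD under the KD virus and 3.17-fold higher under the control virus. Ddit3, which encodes the transcription factor CHOP, was 2.66-fold higher under the KD virus and 3.36-fold higher under the control virus. Atf3, a transcription factor of the same family, reached 22.7-fold under the KD virus and 8.98-fold under the control virus, and Sesn2, a leucine sensor that restrains mTORC1, 9.56-fold under the control virus. KD over control gave a list median of -0.04 in normal culture and 0.01 in OGD, with 1 gene higher and 0 lower in each. Over all genes 4.67% were higher and 13.9% lower in normal culture, and 16.2% higher and 2.28% lower in OGD. The higher gene of the list was Trib3 in normal culture, 2.25-fold higher [2.11 to 2.40], and Vldlr, a lipoprotein receptor, in OGD, 3.50-fold higher [3.27 to 3.76]. As a share of counts Vldlr was 2.83-fold higher.

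Of 35 genes of amino acid sensing through GCN2 and mTORC1, a list that includes the genes of GCN2 and of mTORC1 subunits and regulators, 33 passed the filter. In OGD 10 were at least 2-fold higher and 6 lower under the KD virus (median 0.41), and 6 were higher and 8 lower under the control virus (median -0.26). Over all genes 33.4% were higher and 20.9% lower under the KD virus (median 0.32), and 11.6% higher and 24.3% lower under the control virus (median -0.25). Impact, which encodes an inhibitor of GCN2 activation, was at 33.8 FPKM in KD OGD and 18.2 FPKM in control OGD, against 1.25 FPKM in KD normal and 0.82 FPKM in control normal. Castor1, the arginine sensor of mTORC1, was at 3.15 FPKM in KD OGD and 5.32 FPKM in control OGD, against 36.5 FPKM in KD normal and 27.0 FPKM in control normal. Rragc, a Rag GTPase of the lysosomal surface, was 4.77-fold higher [4.44 to 5.13] in OGD under the control virus. KD over control gave 1 of the 33 higher and 5 lower in normal culture, where 4.67% of all genes were higher and 13.9% lower. In OGD 5 were higher and 0 lower, where 16.2% were higher and 2.28% lower, so these counts are near the background. Fnip1, which encodes a folliculin partner, was 7.52-fold higher [6.62 to 8.57] in KD OGD than in control OGD. It was at 13.1 FPKM in KD OGD and 1.74 FPKM in control OGD, against 0.44 FPKM in KD normal and 0.72 FPKM in control normal. Fnip1 thus passed the filter only through KD OGD, so a difference of that gene was built into its passing.

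Slc7a1 had the widest range of the 10 genes, 4.45 on the log2 scale. Among the 6572 genes that averaged 10 FPKM or more, those with the nearest centred log2 profile over the 4 libraries were Ivns1abp (distance 0.22), Gem (0.32), Slc23a2 (0.46), Mbnl1 (0.48) and Nr4a2 (0.53). Ivns1abp was at 92.8 FPKM in KD OGD and 27.0 FPKM in control OGD, against 3.64 FPKM in KD normal and 6.80 FPKM in control normal. With 4 libraries this nearness is a description only.

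Reads of 2 members may be shared with neighbours, because the sources used here do not say whether counting was by strand. Gm20388, annotated on the opposite strand over Slc7a5, had 1592 counts in KD OGD and 1226 in control OGD, against 1210 in KD normal and 3090 in control normal, set beside 13494, 10815, 6397 and 5601 counts of Slc7a5 in the same libraries. Slc6a9 overlaps Ccdc24, B4galt2 and Gm17114, all on the opposite strand, of which B4galt2 was the highest in normal culture at 37.8 FPKM in KD normal and 47.8 FPKM in control normal. The other 8 members overlap no annotated gene in GENCODE M21.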

How the data were processed

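Expression in 4 libraries of HT22 cells was read from the authors' deposited tables. Each of the authors' gene tables holds effective lengths, expected counts and FPKM values, per the file headers. All deposited expected counts were whole, and the deposited FPKM matched the count scaled to effective length and library total, within rounding. Per the submitters' processing notes, TopHat2 and mm10 were used; the sources used here give no versions, counting tool or strand setting. The deposited comparison tables give log2 fold changes and p-values, per the file headers, and list only genes with a p-value below 0.05; their 4 columns of values per library were not used. Log2 ratios of FPKM + 1 were computed for the 12256 genes that averaged 1 FPKM or more, and 2-fold was counted as higher or lower. Intervals are exact conditional binomial 95% intervals from the counts, taking lengths and totals as known; those of differences between ratios use the normal approximation. The steps were tested on simulated data. No test was made, with 1 library per group. A count of 3 at 1 kb is 0.129 FPKM in KD OGD and 0.109 FPKM in control OGD, against 0.129 FPKM in KD normal and 0.115 FPKM in control normal. Coordinates are from GENCODE M21 (GRCm38), symbols matched 46488 of 47069 identifiers. Alternatives were other scalings, CPM scaled by TMM (edgeR 4.0.16) and not divided by length, a lowess length trend (statsmodels 0.14.6, span 0.3), a pseudocount of 0.1 and other filters. The other filters change which genes are counted and leave the ratio of each gene as it was. Members and lists were chosen with earlier results of these data known. Named genes were all members and, of each further list, up to 4 with the largest ratio in size per comparison, plus Atf4, Ddit3, Asns, Trib3 and Slc7a11; examples given in the text are from these.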

Additional observations from a re-analysis of the deposited data

Results flagged for a closer look

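In 5 of the 10 genes the KD library was lower than its control in normal culture and higher than its control in OGD, and the counting intervals of both ratios lay off 1. The difference of the log2 ratios, OGD minus normal, was 2.78 for Slc7a1, 2.34 for Slc7a6, 1.61 for Slc38a1, 2.07 for Slc38a2 and 1.01 for Slc1a4. The difference was not tested, since each group is 1 library, and 51.4% of all genes compared had the same pair of directions at any size. For Slc1a4 both directions turned with the length trend removed. The differences were then 1.42 for Slc7a1, 1.08 for Slc7a6, 0.73 for Slc38a2, 0.25 for Slc38a1 and -0.27 for Slc1a4. Slc7a6 also had OGD over normal ratios of opposite direction under the 2 viruses, higher with the KD virus and lower with the control virus, which is by construction the same difference of 2.34 and was not tested.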

How the results depend on the processing

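No paired analysis was possible because each group holds 1 library. The OGD counts of members at 2-fold, 9 higher under the KD virus and 7 under the control virus with 0 lower in each, ranged from 7 to 10 and from 6 to 9 under the 8 alternatives, 1 of which, the filter at a mean of 5 FPKM, removed Slc7a3. The KD counts moved more. Of the genes at 2-fold in OGD (4 higher), 1 was left with median-of-ratios scaling, 1 with upper-quartile scaling, 1 with TMM-scaled CPM without length and 1 with the length trend removed. In normal culture the count of lower genes (1) came to 2 after rescaling to equal library sums and 0 with median-of-ratios and upper-quartile scaling, with TMM-scaled CPM without length and with the length trend removed, and 1 gene, Slc7a3, was higher with a pseudocount of 0.1. The count of differences of at least 1 (5) was 2 with the length trend removed and 7 after rescaling to equal library sums. It was 4 with median-of-ratios scaling, with upper-quartile scaling and with TMM-scaled CPM without length. With a pseudocount of 0.1 the count of differences of at most -1 was 1. In each case the cause was not tested. The all-gene median moved with scaling, between -0.51 and 0.01 for the KD ratio of normal culture, -0.03 and 0.51 for the KD ratio of OGD, -0.34 and 0.07 for OGD over normal under the control virus, and -0.01 and 0.75 under the KD virus. Relative to it, between 9 and 10 members lay above under the KD virus and between 8 and 9 under the control virus in OGD over normal. Calls at 2-fold over all genes that were higher made up 87.7% of calls for KD over control in OGD, against 52.1% with median-of-ratios and 96.9% after rescaling to equal sums, and in normal culture 25.2%, against 57.7% with median-of-ratios and 5.77% with equal sums. For OGD over normal they made up 61.6% under the KD virus, ranging from 47.3% (median-of-ratios) to 78.6% (equal sums), and 32.3% under the control virus, ranging from 27.3% (equal sums) to 53.5% (upper quartile).

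The sign changed in 30 of 395 member values over the alternatives, 9 of them values whose own counting interval spanned no difference. Those 395 include 45 values under the filter at a mean of 5 FPKM and 50 with no filter. A filter leaves each ratio as it was, so these values could not change sign. After rescaling to equal sums the sign changed for Slc7a5 (-0.0176), Slc3a2 (-0.0340), Slc1a5 (-0.16) and Slc6a9 (-0.18) in the KD ratio of normal culture, and for the differences of Slc7a3 (0.0443) and Slc3a2 (0.39). Under median-of-ratios scaling it changed for Slc3a2 (-0.29), Slc1a5 (-0.14) and Slc7a3 (-0.18) in OGD and for the differences of Slc7a5 (-0.27) and Slc1a5 (-0.59). Under upper-quartile scaling it changed for Slc3a2 (-0.18), Slc1a5 (-0.0227) and Slc7a3 (-0.0957) in OGD and for the differences of Slc7a5 (-0.0739) and Slc1a5 (-0.40). With TMM-scaled CPM, not divided by length, it changed for Slc3a2 (-0.38), Slc1a5 (-0.17) and Slc7a3 (-0.29) in OGD and for the differences of Slc7a5 (-0.31), Slc6a9 (-0.48) and Slc1a5 (-0.67). With the length trend removed it changed for Slc1a4, at 0.16 in normal culture and -0.11 in OGD, for Slc1a5 (-0.00014) and Slc7a3 (-0.23) in OGD, and for the differences of Slc7a5 (-0.71), Slc1a4 (-0.27), Slc6a9 (-0.17) and Slc1a5 (-0.46). Depth limits Slc7a3, with 1 count in control normal. The ratio of Slc6a9 in normal culture rests on 706 counts in KD normal and 602 in control normal, and moved with scaling and the handling of length.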
